A study of Homo sapiens with 4 samples.

Results

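The interleukin-6 (IL6) family comprises secreted cytokines that signal through a shared membrane chain, gp130, encoded by IL6ST. This account covers 10 of its genes in HepG2, an established human hepatoma line: the ligand genes IL6, IL11 and LIF, the receptor genes IL6R, IL11RA, OSMR, LIFR and IL6ST, the transcription factor gene STAT3 and the feedback inhibitor gene SOCS3. They were selected by gene name, from results on the same arrays in which the IL11 values with each LSD1 siRNA were already known. The difference between knockdown and control is therefore given for them as a description, with no p-value for any member. All 10 genes were measured, out of 19775 genes in all, by 32 probe sets that each name 1 gene. On the Affymetrix HG-U133 Plus 2.0 array a probe set is a group of short probes that reads 1 transcript region.

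HepG2 cells were cultured with 10% serum and 25 mM glucose. They were transfected near 50% confluence with small interfering RNA (siRNA), and their total RNA was read on 4 arrays after 4 days. Controls were transfected with siRNA to GL3 (2 arrays, control 1 and control 2). Knockdown was by 2 siRNAs to LSD1, siRNA-1 and siRNA-2, with 1 array for each; LSD1 is the histone demethylase encoded by KDM1A. The labels do not state whether the 2 control arrays stand for separate cultures, so the spread between them may be technical. The 2 knockdown arrays carry different siRNAs. The p-values and standard errors (SE) of knockdown against control therefore also reflect the difference between the siRNAs. The study used a single cell line, so gene levels stand for the whole culture, in which fewer cells of a type and less RNA per cell cannot be told apart.

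In liver, IL6 binds its receptor chain IL6R and then engages gp130, and oncostatin M signals through OSMR paired with gp130. Both activate Janus kinases and STAT3. STAT3 turns on genes of acute phase plasma proteins and also SOCS3, whose product binds gp130 and dampens the signal. IL11 and LIF work the same way through IL11RA and LIFR, the latter being shared by LIF and oncostatin M, and are made by many cells under growth factor or stress signals.

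The deposited values, taken as log2, were centred, so that the median of the 4 arrays is 0 in every probe set. Levels are lost by this, and the middle pair of arrays always mirror each other around 0. Brightness could still be read in 3 broad classes from the rounding of the numbers (8 and above, 4 to 8, and below 4 on the log2 scale, the last called dim here). All 7 measured hepatocyte markers, among them ALB, TTR and AFP, were in the top class. Each was also higher on the knockdown arrays than on either control, by a median of 0.47. Of the endothelial markers 5 of 6 were dim. Fibroblast and stellate cell markers were mixed, with 5 of 8 in the top class, though a class can come out too bright by chance. COL1A1 and ACTA2 were higher and DCN lower on both knockdown arrays, and the mean of the 8 was -0.15 and -0.06 on the controls, -0.04 for siRNA-1 and 0.51 for siRNA-2. Markers of macrophages and leukocytes had 1 of 7 in the top class and a median difference of -0.03. Hybridization spike-in transcripts read 1.28 higher on the knockdown arrays. The ACTB probe set nearer the transcript's start fell by 0.61 relative to the one at its end (-0.61). The same measure for GAPDH was -0.175. The part that these shifts had in the results below was not tested. KDM1A itself read 1.23 and 1.17 on the controls, -1.55 for siRNA-1 and -1.17 for siRNA-2, so both siRNA arrays lay below both controls.

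Upstream sequence is shown for IL11, the member with the largest difference, and for LIFR, the member whose windows held the letters to which STAT factors are known to bind. RefSeq (GRCh38.p14) gave 13 start windows for 9 of the 10 members, and the 250 bases before each start were searched on both strands. The IL11 window (chr19:55370464-55370713, minus strand, 67.2% G and C against a median of 58.0% over all windows) held the AP-1 letters TGANTCA once, at positions -96 to -90 from the start. These are in capitals here, 5′ to 3′.
IL11: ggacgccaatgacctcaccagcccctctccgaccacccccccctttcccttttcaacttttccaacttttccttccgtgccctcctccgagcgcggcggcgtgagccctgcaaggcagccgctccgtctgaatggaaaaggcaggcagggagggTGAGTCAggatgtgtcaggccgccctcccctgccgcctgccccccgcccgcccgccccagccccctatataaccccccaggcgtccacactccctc

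The same AP-1 letters were present in 6.57% of 35116 windows, and in no other member's window. The STAT letters TTCNNNGAA were likewise in 6.57% of windows, and among the members in 2 of the 3 LIFR windows and in none of the others, SOCS3 included. The stretches of 60 bases around them, with the STAT letters in capitals, are on the minus strand at chr5:38595537-38595596 and chr5:38557616-38557675.
LIFR window 1: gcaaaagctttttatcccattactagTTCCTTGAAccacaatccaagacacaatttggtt
LIFR window 2: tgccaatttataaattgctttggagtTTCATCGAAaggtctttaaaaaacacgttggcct

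The letters of the EGR1 motif, GCGNGGGCG (8.41% of windows), were found 3 times in the third LIFR window and in no other member's. The CRE letters TGACGTCA (1.65%) were in none of the member windows, and TATAAA (10.7%) was only in the second LIFR window. SP1 letters, GGGCGG, were in 42.6% of all windows and in those of IL11, IL6ST, LIFR, OSMR, STAT3 and IL11RA. A match describes these letters alone.

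Among the 10 genes, 4 lay below both controls with either siRNA: the ligand genes IL11 and LIF and the receptor genes IL6R and OSMR. Of all genes 25.3% did so. IL6ST, LIFR and STAT3, 3 of 10, were above both controls with either siRNA, as were 23.5% of all genes. IL6, IL11RA and SOCS3 overlapped the controls. The median difference of the 10 was -0.05, and that of all genes was 0.00. The limma fit of knockdown against control called 0 of the 10 genes at an adjusted p under 0.05; it called 0.00506% of all genes, and an unadjusted p under 0.05 was found for 4 members and for 2877 of all 19775 genes. Nothing is read from these member counts, since the genes were chosen with this contrast known.

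**Figure D1:**
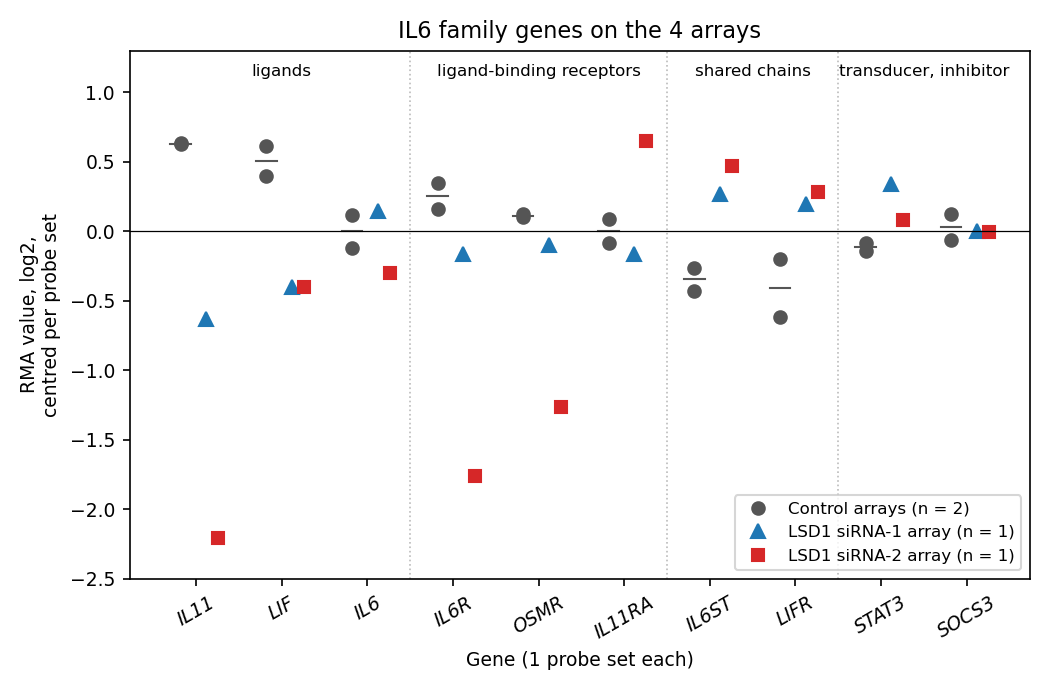
RMA value (log2, centred per probe set) of the 10 genes on each array, with circles for the 2 controls, a short line for their mean, a triangle for siRNA-1 and a square for siRNA-2. IL11 lies between -0.63 and -2.21 on the knockdown arrays against 0.63 on both controls, LIF is equally low with both siRNAs, and IL6R and OSMR are lowest with siRNA-2.

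IL11, a cytokine of stromal and epithelial cells known for fibrotic and platelet-related actions, had the largest difference. Its probe set read 0.63 and 0.63 on the controls, -0.63 for siRNA-1 and -2.21 for siRNA-2. Both knockdown arrays were below both controls, which lay 0.003 apart, and siRNA-2 was the lower. The difference was -2.05 ± 0.54 (SE of the limma fit, n = 2 arrays each), a 4.14-fold lower value, made up of -1.26 for siRNA-1 and -2.84 for siRNA-2. The other IL11 probe set, of the _s_at kind that can read related transcripts, read 0.36 and 0.43 on the controls, -0.36 for siRNA-1 and -0.68 for siRNA-2. Both knockdown arrays were again below both controls, siRNA-2 the lower, with a smaller span.

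By the distance between their values over the 4 arrays, the 5 genes nearest to IL11 among 15233 that were not dim were ANXA1 (0.27 log2 units away), VGF (0.39), POLR3G (0.40), MMP3 (0.44) and H2AC6 (0.44). ANXA1, the gene of a phospholipid-binding protein, read 0.59 and 0.88 on the controls, -0.59 for siRNA-1 and -2.30 for siRNA-2. The distance rests on 4 values a gene and is a description only.

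LIF, the leukaemia inhibitory factor gene, read 0.40 and 0.62 on the controls, -0.40 for siRNA-1 and -0.40 for siRNA-2. The knockdown arrays lay together, below both controls. The difference was -0.91 ± 0.12 (SE, n = 2 arrays each), or 1.88-fold lower, with a gap between the controls of 0.22. LIF had 1 probe set, in the class from 4 to 8.

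IL6, the family's founding ligand, was read by 1 dim probe set at -0.12 and 0.12 on the controls, 0.15 for siRNA-1 and -0.30 for siRNA-2. The siRNA arrays fell on either side of the controls. Its difference of -0.08 ± 0.20 (SE, n = 2 arrays each) was smaller than its error.

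IL6R encodes the chain that binds IL6. Its brightest probe set read 0.16 and 0.35 on the controls, -0.16 for siRNA-1 and -1.76 for siRNA-2. The siRNA-2 array stood far below the other arrays, while siRNA-1 was only a little below the controls. The difference was -1.22 ± 0.56 (SE, n = 2 arrays each), with -0.42 for siRNA-1 and -2.02, or 4.05-fold lower, for siRNA-2. The remaining pair of IL6R probe sets went the same way, at -0.48 and -0.22 with siRNA-1 and -2.45 and -1.02 with siRNA-2, the smaller values belonging to a dim one.

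OSMR encodes the oncostatin M receptor chain, which pairs with gp130. It read 0.12 and 0.10 on the controls, -0.10 for siRNA-1 and -1.26 for siRNA-2. As with IL6R, siRNA-2 was far below and siRNA-1 just below the controls. The difference was -0.79 ± 0.41 (SE, n = 2 arrays each), with -0.21 for siRNA-1 and -1.37, or 2.59-fold lower, for siRNA-2. The further OSMR probe sets read -0.34 and -0.65 with siRNA-1 and -1.41 and -1.87 with siRNA-2, so in all 3 both siRNAs were below both controls and siRNA-2 was the lower.

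IL11RA, the chain that binds IL11, read -0.09 and 0.09 on the controls, -0.16 for siRNA-1 and 0.65 for siRNA-2. The siRNA arrays lay on opposite sides of the controls. A dim IL11RA probe set had the reverse order, at 0.40 for siRNA-1 and 0.11 for siRNA-2 relative to the control mean. The difference of the brighter one was 0.24 ± 0.30 (SE, n = 2 arrays each), and the disagreement of the probe sets leaves IL11RA without a clear direction.

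IL6ST, which encodes gp130 itself, read -0.43 and -0.27 on the controls, 0.27 for siRNA-1 and 0.47 for siRNA-2. Both knockdown arrays were above both controls. The difference was 0.71 ± 0.13 (SE, n = 2 arrays each), or 1.64-fold higher. Of its 7 probe sets 5 were higher on both knockdown arrays. The 4 in the top class were among them, with differences from 0.34 to 0.71. The other two read -0.07 and 0.07.

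LIFR encodes the receptor chain of LIF, which also pairs with gp130. It read -0.20 and -0.62 on the controls, 0.20 for siRNA-1 and 0.28 for siRNA-2. The knockdown arrays lay close together above both controls, which were 0.42 apart. The difference was 0.65 ± 0.18 (SE, n = 2 arrays each), or 1.57-fold higher. Of 5 LIFR probe sets 4 were higher on both knockdown arrays (0.30 to 0.65) and a dim one read -0.07.

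LIFR and OSMR are neighbours in the order of measured protein-coding genes on chromosome 5, with none in between, and they differed in opposite directions. RICTOR, on the far side of OSMR, read 0.03, and EGFLAM, on the far side of LIFR, read -0.10. IL6ST lies elsewhere on chromosome 5 between IL31RA (0.06) and ANKRD55 (1.10). These neighbours are descriptions of position only.

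STAT3, the transcription factor at the end of the cascade, read -0.14 and -0.08 on the controls, 0.34 for siRNA-1 and 0.08 for siRNA-2. Both knockdown arrays were above the controls, siRNA-2 by a small margin. The difference was 0.32 ± 0.13 (SE, n = 2 arrays each), or 1.25-fold higher. A further STAT3 probe set was similar (0.39 with siRNA-1, 0.10 with siRNA-2), whereas the other probe set in the top class read -0.05 with both and one of no class read 0.04 and 0.64.

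SOCS3 is the feedback inhibitor that STAT3 induces. It read 0.12 and -0.06 on the controls, 0.00 for siRNA-1 and 0.00 for siRNA-2, so the knockdown arrays fell between the controls. The difference was -0.03 ± 0.12 (SE, n = 2 arrays each). The differences of all 4 SOCS3 probe sets lay between -0.07 and -0.01.

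Over all 32 probe sets of the 10 genes, 10 were lower and 12 higher with either siRNA than on both controls, and 10 overlapped the controls. Of 41091 probe sets that name 1 gene, 26.8% were lower and 22.0% higher in that way. Dim probe sets made up 7 of the 32. Every IL11, LIF, IL6R and OSMR probe set was among the lower ones, and the remaining lower one was a SOCS3 probe set at -0.06.

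**Figure D2:**
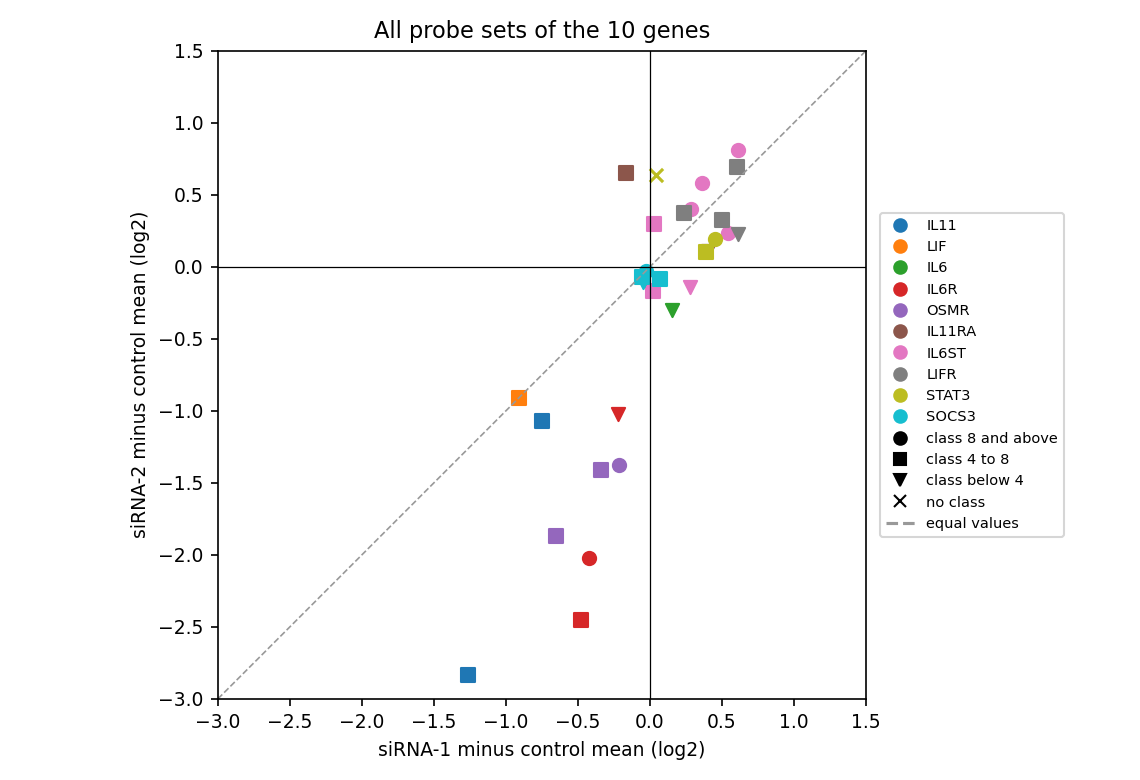
Difference from the control mean (log2) of each of the 32 probe sets, siRNA-1 on the horizontal and siRNA-2 on the vertical axis, coloured by gene and shaped by brightness class, with a dashed line where both siRNAs are equal. The IL6R, OSMR and IL11 points lie below that line, the LIF point on it at -0.91, and a dim IL11RA point at 0.40 and 0.11 lies behind a STAT3 point.

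Whether the siRNAs differed from each other is a separate contrast from knockdown against control. It was tested with limma in a model of 3 groups, whose spread comes from the 2 controls alone, so each lone siRNA array is assumed to vary like them. The model has 1 residual degree of freedom, and the siRNA-2 array had the widest spread (SD over all probe sets 0.384, against 0.154 to 0.164 on the controls), so its p-values hold only under that assumption. At an adjusted p under 0.05 it called 3 of the 10 genes lower with siRNA-2 than with siRNA-1 and 0 higher; over all genes 2.84% were called lower and 3.98% higher. One of the 3 is IL11, whose siRNA values were known when the genes were chosen, so its difference of -1.58, or 2.98-fold lower with siRNA-2, is a description with no p-value. IL6R was lower by -1.60 (-2.01 to -1.18) and OSMR by -1.16 (-1.41 to -0.91). All members were chosen with earlier results of these arrays known, so these calls are no independent tests.

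Across probe sets, the siRNA difference was close to this size for OSMR (-1.07 to -1.22) and wider for IL6R (-0.80 to -1.97). For IL11 it was -1.58 in one probe set and -0.32 in the other. No member was called when the 4 arrays were quantile normalized, and neither was any other gene. IL6R and OSMR were called under the other alternatives.

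The remaining members did not pass this test. LIF differed by 0.00 (95% interval -0.47 to 0.46, limma adjusted p = 0.988) and SOCS3 by 0.00 (-0.41 to 0.41). IL6ST read 0.20 (-0.18 to 0.58), LIFR 0.08 (-0.72 to 0.88), STAT3 -0.26 (-0.53 to 0.02) and IL6 -0.45 (-0.95 to 0.05). IL11RA read 0.81 (0.42 to 1.21, limma adjusted p = 0.0615), and passed when dim genes were left out (0.0401) or array medians were subtracted (0.0289). KDM1A read 0.38 higher with siRNA-2 and did not pass (limma adjusted p = 0.0926).

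The other genes of the pathway were taken from 6 lists with 72 genes, 62 of them measured, drawn up from textbook roles with earlier results of these arrays known. Knockdown against control called 0 of the 62 in the limma test, and 23 had an unadjusted p under 0.05, as had 2877 of all 19775 genes. KDM1A itself, 5.91-fold lower, did not pass this test either (limma adjusted p = 0.0853). The lack of calls is therefore not evidence of no change. The 3-group limma model called 0 of the 62 with siRNA-1 (0.0% of all genes), with 32 at an unadjusted p under 0.05, as against 5255 of all 19775 genes. With siRNA-2 it called 19 higher and 11 lower, which is to be read against 13.2% of all genes higher and 10.1% lower. On both knockdown arrays 26 of the 62 were higher than both controls (23.5% of all genes) and 14 lower (25.3% of all genes), the latter near the share of all genes. The median difference of the 62 was 0.13. The siRNA-2 calls describe 1 array against 2 controls. None of them was made after quantile normalization of the arrays, where no other gene was called with siRNA-2 either. Some of the 62 also differed between the siRNAs, in either direction, with 1 array each. Among them was ORM1, an acute phase gene, at 0.73 for siRNA-1 and -0.05 for siRNA-2 relative to the control mean.

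**Figure D3:**
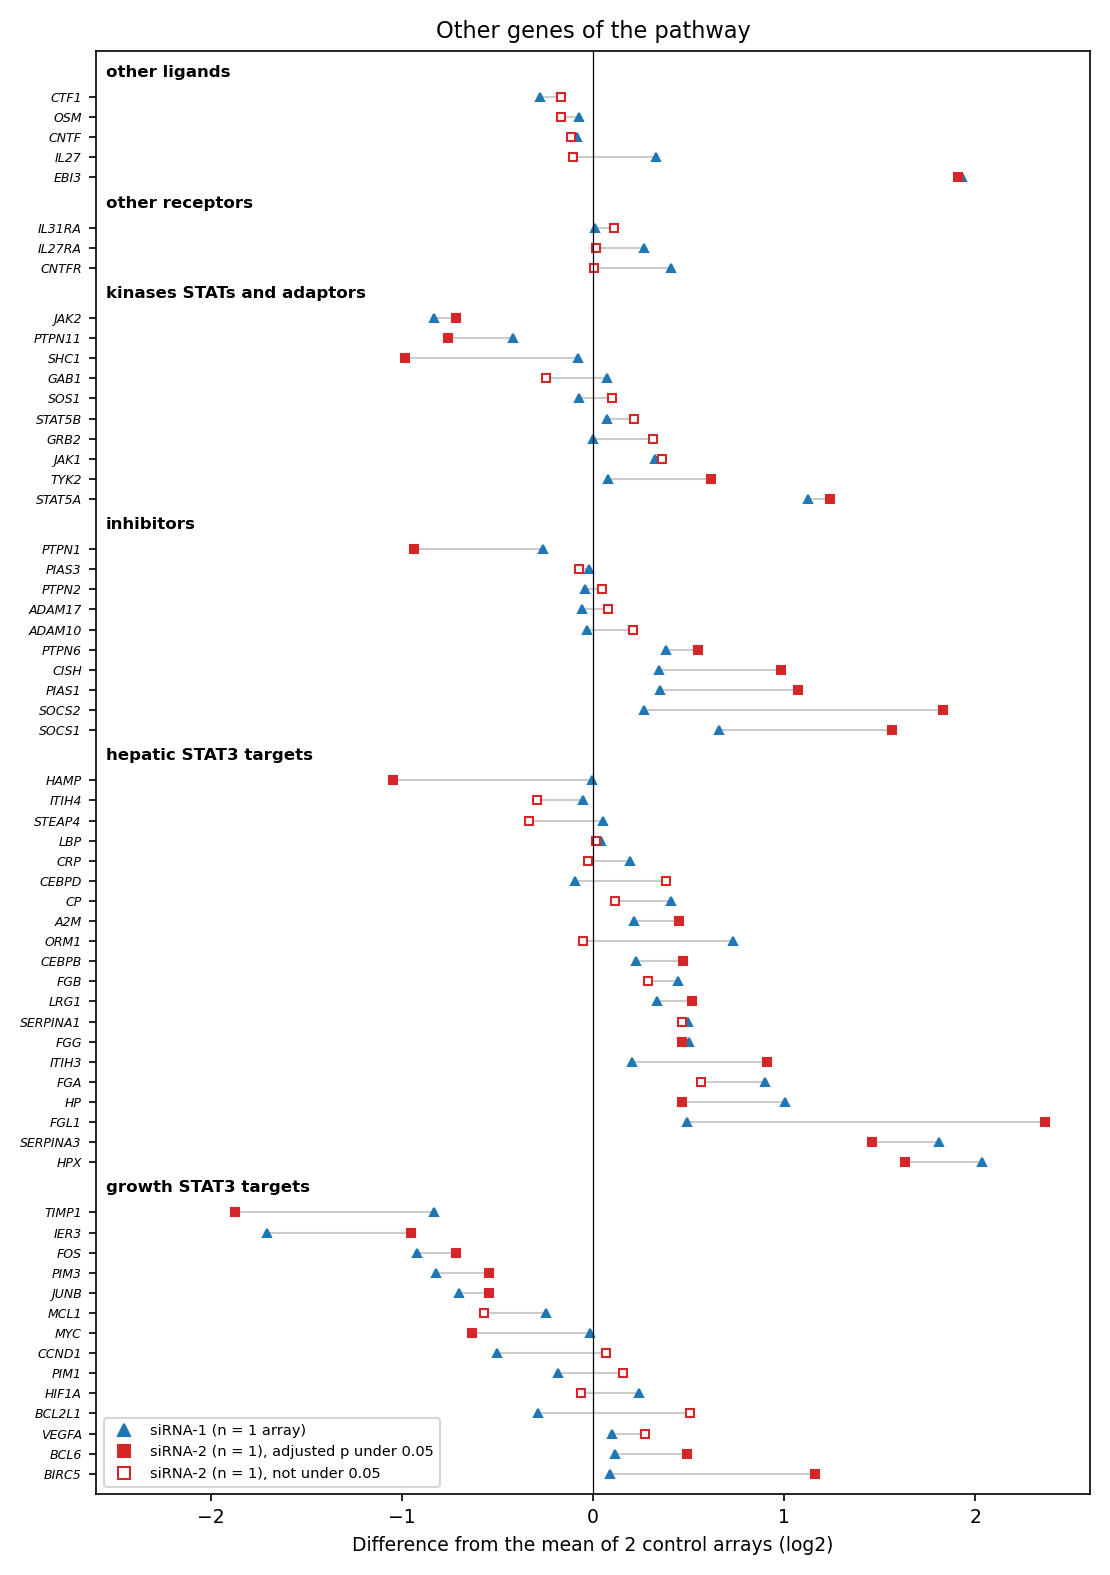
Difference from the mean of the 2 control arrays (log2) for 62 other pathway genes in 6 lists, with a triangle for siRNA-1 and a square for siRNA-2, filled where the limma adjusted p of siRNA-2 was under 0.05. EBI3 stands at 1.93 and 1.91, the SOCS and PIAS1 points lie to the right, and TIMP1 and IER3 lie to the left.

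Among the 5 other ligand genes, 1 lay above both controls with either siRNA (23.5% of all genes) and 3 lay below (25.3%). The higher one was EBI3, which encodes a subunit of interleukin-27 and interleukin-35. It read -0.88 and -1.20 on the controls, 0.89 for siRNA-1 and 0.88 for siRNA-2. Both knockdown arrays were far above the controls and level with each other. The difference was 1.92 ± 0.15 (SE, n = 2 arrays each), 3.79-fold, with a limma adjusted p of 0.0941 for knockdown against control and 0.0208 for siRNA-2. Its partner IL27 read 0.11, OSM, the oncostatin M gene, -0.12, and the cardiotrophin gene CTF1 -0.22, none of which passed. None of the 3 other receptor genes passed, with CNTFR at 0.21, IL27RA at 0.14 and IL31RA at 0.06.

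Of 10 genes for kinases, STATs and adaptors, 4 lay above both controls with either siRNA (23.5% of all genes). Below both controls lay 3, near the 25.3% of all genes. STAT5A, a transcription factor of growth hormone and cytokine signals and the neighbour of STAT3 on chromosome 17, read -0.61 and -0.54 on the controls, 0.54 for siRNA-1 and 0.66 for siRNA-2. Its difference was 1.18 ± 0.11 (SE, n = 2 arrays each; limma adjusted p = 0.107 for knockdown against control and 0.0154 for siRNA-2). JAK2, a kinase bound to gp130, read 0.36 and 0.36 on the controls, -0.47 for siRNA-1 and -0.36 for siRNA-2. Its difference was -0.77 ± 0.11. TYK2 rose with siRNA-2 (0.62) but read 0.08 with siRNA-1, while JAK1, the main kinase of gp130, read 0.33 and 0.36 and did not pass.

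The phosphatase and adaptor genes PTPN11 (-0.76) and SHC1 (-0.98), which link gp130 to the ERK pathway, fell with siRNA-2 and read -0.42 and -0.08 with siRNA-1. GAB1, GRB2, SOS1 and STAT5B did not pass in the probe sets used, but further ones differed. With siRNA-2 the GAB1 probe set used read -0.25, and those from 4 to 8 read -0.12, 0.73, 0.87 and 1.27. SOS1 read 0.10 with siRNA-2, and its further probe sets that were not dim read 0.21, 0.62 and 0.96. For GRB2 (0.32) these read -0.32 and -0.08, and for STAT5B (0.21) -0.80, -0.57, -0.29 and 0.19.

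The list of inhibitors also holds the ADAM10 and ADAM17 genes of proteases that shed receptors. Of its 10 genes, 5 lay above both controls with either siRNA (23.5% of all genes) and 1 lay below (25.3%). SOCS1, a JAK inhibitor related to SOCS3, read -0.31 and -0.40 on the controls, 0.31 for siRNA-1 and 1.21 for siRNA-2. SOCS2 read -0.13 and -0.16 on the controls, 0.13 for siRNA-1 and 1.69 for siRNA-2. In both genes the siRNA-2 array was the highest and siRNA-1 was above the controls.

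The SOCS1 value comes from 1 of 4 probe sets, and a second one in the same class read 0.06 for siRNA-1 and -0.14 for siRNA-2. CISH, the gene of a STAT5-induced inhibitor, was 0.98 higher with siRNA-2, PIAS1, a SUMO ligase that restrains STAT proteins, 1.07 higher, and the phosphatase gene PTPN6 0.55 higher. PIAS1 was higher in all 3 of its probe sets, from 0.79 to 1.07. PTPN1, another phosphatase gene, fell by 0.94 (-0.94), in its brightest probe set, while those from 4 to 8 read -0.36 and 0.10; PIAS3, PTPN2, ADAM10 and ADAM17 did not pass.

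Of 20 measured hepatic STAT3 target genes, 13 lay above both controls with either siRNA (23.5% of all genes) and 0 lay below (25.3%). The median difference was 0.36, and with siRNA-2 9 rose (13.2% of all genes) and 1 fell (10.1%). The list shares SERPINA1 with the hepatocyte markers, which were higher as well, and the part of that shift in these values was not tested. Relative to the controls HPX, the gene of the haem carrier hemopexin, was at 2.03 for siRNA-1 and 1.63 for siRNA-2, and SERPINA3, a protease inhibitor gene, 1.81 and 1.46. FGL1, a hepatokine gene, read 0.49 and 2.36.

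Smaller rises with siRNA-2 were read for ITIH3 (0.91), LRG1 (0.52), CEBPB (0.47), FGG (0.47), HP (0.47) and A2M (0.45). HAMP, which encodes the iron hormone hepcidin, fell by 1.05 (-1.05) with siRNA-2 and read 0.00 with siRNA-1. ITIH4 read -0.29 with siRNA-2 and did not pass, and CRP, the classic acute phase gene, was dim and read 0.19 and -0.03.

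Of 14 measured growth and survival targets of STAT3, 7 lay below both controls with either siRNA (25.3% of all genes) and 3 lay above, near the 23.5% of all genes. The median difference was -0.27, and with siRNA-2 6 fell (10.1% of all genes) and 2 rose (13.2%). TIMP1, a metalloprotease inhibitor gene that IL6-type cytokines induce, read 0.40 and 0.46 on the controls, -0.40 for siRNA-1 and -1.44 for siRNA-2. IER3, an early response gene, read 0.47 and 0.51 on the controls, -1.22 for siRNA-1 and -0.47 for siRNA-2. Both genes were below the controls on each knockdown array, with opposite orders of the siRNAs.

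FOS (-0.72, dim), MYC (-0.64), PIM3 (-0.55) and JUNB (-0.54) also fell with siRNA-2, and MYC read -0.02 with siRNA-1. BIRC5, the survivin gene, rose by 1.16, but further probe sets of the same class read 0.03 and -0.32 with siRNA-2. BCL6 rose by 0.49. For the 30 genes called with siRNA-2, 12 of 19 further probe sets that were not dim went the same way with both siRNAs as the one used.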

How the data were processed

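HepG2 RNA was hybridized to 4 arrays. The authors used RMA, per the submitters' processing notes, with no version given there. The deposited values are taken as log2, though no base is stated. Over 54675 probe sets the row median stayed within 5e-07 of 0. Array medians lay between -0.0152 and 0.0066. An array gives no counts, and the number of arrays limits the precision.

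The brightness class is the single-precision step shared by all differences between arrays. The class of 8 and above holds 26.5% of probe sets, that of 4 to 8 37.3% and the dim one 35.4%; some 1 in 8 rows come out a class too bright by chance. The design had called for the highest mean per gene or, with levels absent, this class. Each gene used its brightest probe set, then one without a letter suffix, then the identifier. Genes with several probe sets are thus more often a class too bright than a single row is. A single symbol was annotated for 41097 probe sets, several for 1801 (not used) and none for 11777; 62 control probe sets were left out.

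Groups were contrasted in limma 3.58.1 in R 4.3.3 (empirical Bayes, two-sided, Benjamini-Hochberg over 19775 genes, threshold 0.05), checked on simulated data. The simulation gave all arrays the same spread, so it does not cover the wider spread of the siRNA-2 array. The prior had 2.34 degrees of freedom with 2 groups and 2.04 with 3. With 2 arrays a side the smallest two-sided exact permutation p is 0.33. Members and lists were chosen with earlier results of these data known. The text names every member, KDM1A and the 5 genes nearest IL11. From each pathway list it names genes called in any main fit and the 2 largest differences each way that were not dim. Genes called only under an alternative are not all named, and other named genes give background. Alternatives are in the closing section. Same-numbered arrays share only a number (correlation of deviations 0.035), so no block was used.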

Additional observations from a re-analysis of the deposited data

Results flagged for a closer look

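The siRNA-2 array read lower than the siRNA-1 array for IL11 (-1.58), IL6R (-1.60) and OSMR (-1.16), all log2. The limma model that called these differences contrasts 1 array with 1 array and takes its spread from the 2 controls, with 1 residual degree of freedom. The siRNA-2 array had the widest spread over all probe sets, with a standard deviation of 0.384 against 0.197 with siRNA-1 and 0.154 to 0.164 on the controls. After quantile normalization of the arrays none of the 3 was called, and neither was any other gene, so that loss is not particular to these genes. These values thus describe the 2 siRNA arrays. The members were chosen with earlier results of these arrays known, both IL11 values among them, so the calls are no independent tests. The part of the array's spread in the 3 differences was not tested.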

How the results depend on the processing

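With all alternatives run, the members' counts kept within 4 to 5 lower and 3 to 4 higher on both knockdown arrays, leaving out each array included. The direction of IL11, LIF, IL6R, IL6ST, LIFR, OSMR and STAT3 was kept in all 11 settings, but most settings could not have turned it. Both siRNA arrays lay beyond both controls for these genes, so leaving out 1 array kept the sign by construction. A robust fit, the replicate block, and leaving out dim genes or _x_at and _s_at probe sets did not change these differences. Subtracting array medians, which lay between -0.0152 and 0.0066, was too small a shift to turn them. Averaging probe sets could not turn IL11, LIF, IL6R and OSMR, whose probe sets were all lower. That left quantile normalization, and averaging for IL6ST, LIFR and STAT3, as settings not fixed in advance. Leaving out 1 array turned IL6 (-0.30 to 0.15), SOCS3 (-0.12 to 0.06) and IL11RA (-0.16 to 0.65). Without siRNA-2, IL6R read -0.42, OSMR -0.21 and IL11 -1.26, and without siRNA-1 -2.02, -1.37 and -2.84.

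Pathway genes called for knockdown against control rose from 0 to 6 with quantile normalization. Higher were 5 (EBI3, HPX, SERPINA3, SOCS1, STAT5A) and lower was 1 (TIMP1). Over all 19775 genes that setting called 273 higher and 126 lower, against 1 higher in the main fit. More pathway genes were also called when siRNA-1 was left out, which leaves siRNA-2 alone on its side. With siRNA-1 alone 13 were called after subtracting array medians and 3 with the mean of probe sets, against 0. With siRNA-2 alone 19 were called without _x_at and _s_at probe sets and 0 after quantile normalization, against 30. The members called between the siRNAs went from 3 to 0 with quantile normalization. Applied to centred values, that setting gives all arrays the same spread by construction. With it the 3-group model called none of the other measured genes either. For the changes given here other than leaving out arrays, calls over all genes rose or fell in the same direction. With the replicate block 0 pathway genes and 0 of all genes were called, against 1 without it; same-numbered arrays are not described as paired. Leaving out a control leaves the 3-group model no residual degrees of freedom, so those settings were not run. A lone array in a group is assumed to vary like the other group.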
